A study of Mus musculus with 10 samples.

Results

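Replication-dependent histone genes are the clustered genes that supply new histones while DNA is copied. They were followed here in mouse bone marrow colonies transformed by BCR-ABL, an oncogenic fusion kinase found in some leukaemias. Members were all genes that RefSeq names H1, H2A, H2B, H3 or H4 genes of the Hist1 to Hist4 clusters, with pseudogenes left out. Of 67 such genes, 48 had a probe on the array (52 of 56605 probes), and 45 passed the filter on dim probes: 5 H1, 13 H2A, 11 H2B, 7 H3 and 9 H4 genes. The other 3, H1f6, H2ac7 and H2bc23, were well above background on at most 2 of the 4 arrays of a genotype and in no wild-type channel, and were not tested. Colonies were Cdk6+/+ (wild type), Cdk6-/- or Cdk6-K43M, a CDK6 protein without kinase activity. Marrow came from mice 6 weeks old, was exposed to retrovirus for 24 h and grew for 10 days in methylcellulose that held no growth factors. All groups share this transformation. Each of 4 Cdk6-/- and 4 Cdk6-K43M samples was labelled with Cy5 and hybridised with 1 pool of 4 wild-type samples in Cy3, and 1 further array per genotype held the pool of its 4 RNAs with the dyes exchanged. The sources used here give no strain and no number of colonies or animals behind a sample, so p-values measure only the spread between these samples, which may be technical.

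Histones H2A, H2B, H3 and H4 form the core around which DNA is wound, and H1 binds the linker DNA between cores. The replication-dependent genes are switched on together as cells enter S phase. Their mRNAs end in a stem-loop in place of a poly(A) tail, are bound there by the stem-loop binding protein Slbp, and are degraded when DNA synthesis stops. CDK6 with a D-type cyclin is active in G1, before entry into S phase. The labelling kit named in the labels starts from an oligo-dT primer, so it favours polyadenylated transcripts, and its part in the levels of stem-loop mRNAs was not tested. Genes of a class are nearly identical in sequence and the probe sequences were not used here, so a value under 1 gene's name may hold signal from its relatives.

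The promoters are shown first, since joint control of these genes is what the list is known for. RefSeq (GRCm38.p6) gave a promoter for 40 of the 45 tested genes. For each class, 1 gene among those with the smallest p-values is printed as the 250 bases before its transcription start, 5′ to 3′ on the gene's strand. Capitals mark the letters CCAAT, the core of the NF-Y site, and TATAAA, the TATA box, on either strand (ATTGG and TTTATA on the other). The positions are chr13:23738557-23738806, plus strand, for H1f2; chr13:22042950-22043199, minus strand, for H2ac11; chr11:58948661-58948910, plus strand, for H2bu2; chr13:23575513-23575762, plus strand, for H3c4; and chr13:23581318-23581567, plus strand, for H4c4.
H1f2: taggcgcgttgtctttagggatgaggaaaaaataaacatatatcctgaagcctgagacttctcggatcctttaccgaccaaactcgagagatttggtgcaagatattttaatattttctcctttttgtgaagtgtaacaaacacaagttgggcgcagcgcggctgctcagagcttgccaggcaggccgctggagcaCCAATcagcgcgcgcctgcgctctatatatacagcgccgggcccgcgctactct
H2ac11: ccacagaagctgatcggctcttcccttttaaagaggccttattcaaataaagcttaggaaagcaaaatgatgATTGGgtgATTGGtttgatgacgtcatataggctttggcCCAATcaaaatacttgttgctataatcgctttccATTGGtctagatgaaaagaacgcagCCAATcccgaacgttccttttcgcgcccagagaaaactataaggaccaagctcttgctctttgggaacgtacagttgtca
H2bu2: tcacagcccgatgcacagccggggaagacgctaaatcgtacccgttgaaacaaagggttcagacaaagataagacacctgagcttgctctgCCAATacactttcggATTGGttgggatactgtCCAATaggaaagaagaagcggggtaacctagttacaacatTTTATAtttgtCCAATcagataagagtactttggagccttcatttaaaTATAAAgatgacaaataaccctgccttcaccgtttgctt
H3c4: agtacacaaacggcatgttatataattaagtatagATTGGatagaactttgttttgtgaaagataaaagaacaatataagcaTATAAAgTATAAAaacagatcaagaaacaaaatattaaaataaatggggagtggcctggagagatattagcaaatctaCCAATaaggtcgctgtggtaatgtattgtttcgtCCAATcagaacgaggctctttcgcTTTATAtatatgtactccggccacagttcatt
H4c4: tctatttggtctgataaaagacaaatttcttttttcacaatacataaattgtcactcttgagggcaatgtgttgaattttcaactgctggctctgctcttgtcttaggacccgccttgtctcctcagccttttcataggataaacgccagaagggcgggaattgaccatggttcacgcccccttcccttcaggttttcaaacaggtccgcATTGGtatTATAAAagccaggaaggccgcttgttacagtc
CCAAT occurred in 34 of the 40 promoters (85%), against 34.5% of 27025 promoters of the same length in the table. All 32 promoters of the H1, H2A, H2B and H3 genes with an entry had it, and 2 of 8 H4 promoters did. H2bu2 and H3c4 carried 4 and 3 matches. TATAAA occurred in 21 of 40 (52.5%, all promoters 13%). The octamer ATTTGCAT (ATGCAAAT on the other strand), to which the factor encoded by Pou2f1 binds, occurred in 9 of 40 (22.5%, all promoters 1.61%): 5 of 13 H2A and 4 of 9 H2B genes, and none of the H1, H3 and H4 genes. No motif contains another, and a match is only a match of letters.

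On each array 46.9 to 49.9% of probes were well above background for the mutant RNA and 45.8 to 50% for the wild-type RNA, without a saturated spot. The 45 histone genes were well above background for both RNAs on all 10 arrays, although 1 spot, that of H2ac11 in Cdk6-K43M replicate 3, was not uniform and was set to missing. The 13 listed B-lineage progenitor markers were also well above background on every array. Cdk6 fell by 0.41 in Cdk6-/- (log2; limma, adjusted p = 0.0368) and rose by 0.35 in Cdk6-K43M (adjusted p = 0.031), with single-sample ratios from -0.40 to 0.0024 and from 0.31 to 0.83. The Cdk6 probe reads whatever transcript remains, which leaves the genotype labels unchecked by it. With 10 arrays the precision of each value is limited.

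One library stood apart for the histone genes. The median log2 ratio of the 45 genes over the wild-type pool was -0.07, 0.14, 0.01 and 0.04 in Cdk6-/- replicates 1 to 4, and -0.13, -0.51, -0.10 and -0.17 in Cdk6-K43M replicates 1 to 4. Cdk6-K43M replicate 2 lay far below the other samples of its genotype, while all 4 Cdk6-K43M medians lay below all 4 Cdk6-/- medians. With the dyes exchanged, the pool of Cdk6-/- RNA gave -0.32 and the pool of Cdk6-K43M RNA gave -0.47, lower than all 4 Cdk6-/- samples and than 3 of the 4 Cdk6-K43M samples. The median over all 22008 genes stayed between -0.02 and 0.01 on each array. For each comparison the counts and medians are therefore also given without Cdk6-K43M replicate 2 and without the exchanged pools, and the genes whose call in Cdk6-K43M ended are named by class. Fewer cells in S phase and less histone mRNA per cell cannot be told apart in such bulk RNA.

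**Figure D1:**
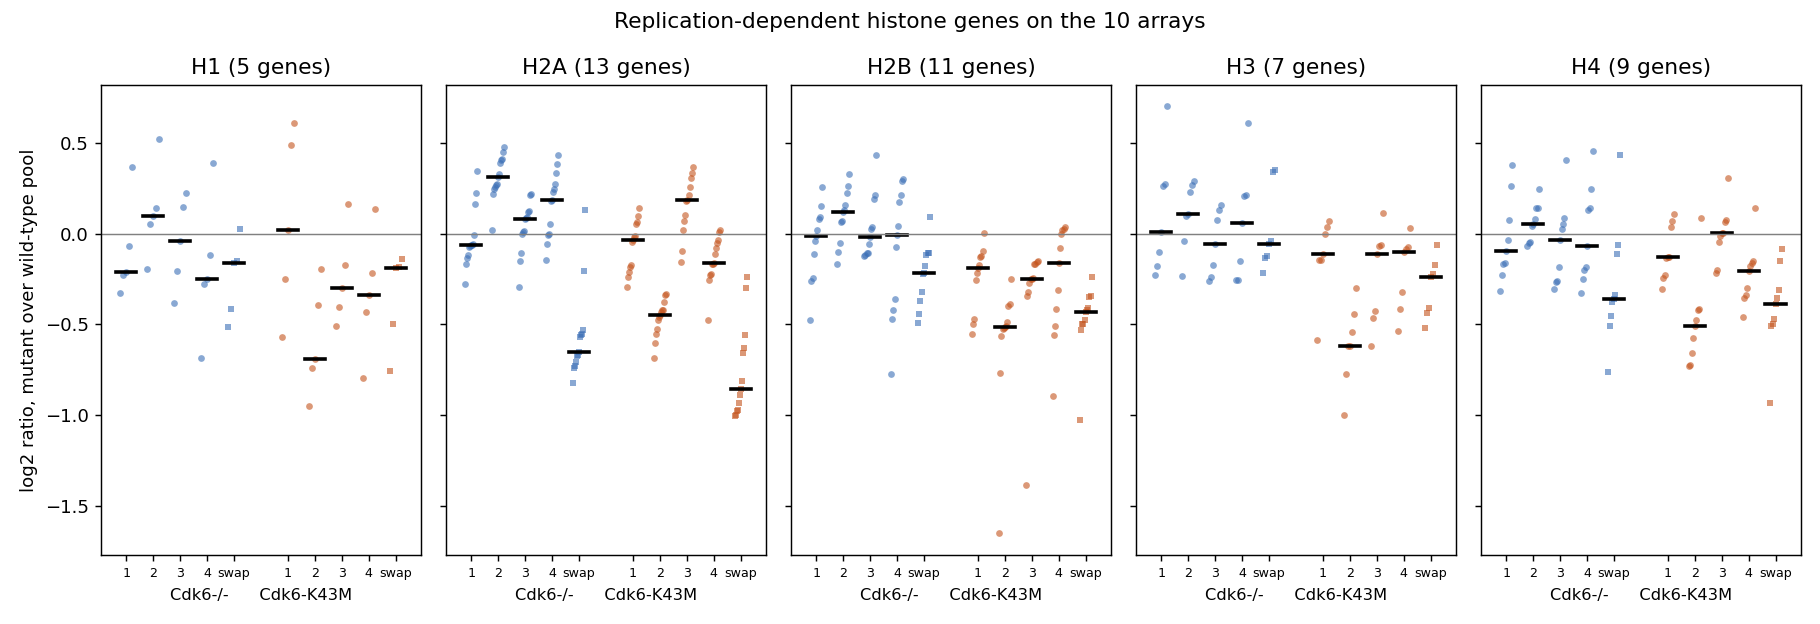
Log2 ratio of mutant over wild-type pool for each tested histone gene (points) on each of the 10 arrays, in 1 panel per class, with single samples 1 to 4 as circles, the pools with exchanged dyes as squares and the median of the class as a black bar. The H2A medians of the exchanged pools (-0.65 and -0.86) lie far below those of the single samples of the same genotype, and Cdk6-K43M replicate 2 is the lowest single sample in every class.

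In Cdk6-/- colonies few histone genes passed the test. Against the wild-type pool 1 of 45 genes fell, H2bc22, and none rose (limma, Benjamini-Hochberg over all genes; of all genes tested 3.85% fell, 3.39% rose and so 7.24% changed). At an unadjusted p under 0.05 there were 21 lower and 3 higher (of all genes 12.5% and 12.3%). The median change was -0.21 (log2, all genes 0.0014), and 33 of the 45 estimates lay below 0.

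H2bc22, a core H2B gene, measured -0.48, -0.17, -0.12 and -0.42 in the 4 Cdk6-/- samples and -0.44 in the exchanged pool. All 5 values lay below the wild-type pool, with replicates 1 and 4 and the pool lower than replicates 2 and 3. The fitted decrease was 0.36 (SE 0.0778, adjusted p = 0.0258), a level 1.29-fold lower than in the pool. Its probe was dim, with a mean log2 signal of 6.84 in Cdk6-/- and 7.14 in wild type. By the brightest probe, nothing among the H1, H2A, H3 and H4 genes passed. With every kept probe as a feature, the second probe of H4c4 passed as lower (-0.33, limma, adjusted p = 0.0346). The estimates nearest the threshold were H4c17 at 0.39 (SE 0.105, adjusted p = 0.0529), H2bc18 at -0.24 (adjusted p = 0.0626), H4f16 at -0.27 (adjusted p = 0.0631) and H3c1 at 0.40 (SE 0.116, adjusted p = 0.0656). H4c17 measured 0.38, 0.14, 0.41 and 0.45 in the single samples and 0.43 in the exchanged pool. H3c1 measured 0.70, 0.27, 0.16 and 0.61, and 0.34 in the pool. Both genes lay above wild type on all 5 Cdk6-/- arrays, on the opposite side from H2bc22.

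The class medians in Cdk6-/- were -0.24 for H1, -0.23 for H2A, -0.08 for H2B, 0.0080 for H3 and -0.26 for H4. Among H1 genes H1f2 measured -0.27 (adjusted p = 0.0852) and H1f1 0.20 (adjusted p = 0.256). Among H2A genes H2ac10 measured -0.30 (adjusted p = 0.0878) and H2aw -0.27 (adjusted p = 0.102). Among H4 genes the estimates of H4c14 and H4c4 were -0.32 and -0.33 (adjusted p of 0.0668 and 0.0803). The call rests on the arrays used: it ended without Cdk6-/- replicate 1 (0 of 45) and with slide as a block (0 of 45), and without Cdk6-K43M replicate 2, which takes part in the shared spread, 14 genes passed (12 lower, 2 higher). Without the exchanged pools and the dye term the median of the 45 genes was 0.0558, and 3 genes passed as higher and 1 as lower.

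In Cdk6-K43M colonies most histone genes were lower than in the wild-type pool. Of the 45 genes 38 fell and none rose (limma, adjusted p under 0.05), where 10.3% of all genes tested fell, 9.79% rose and so 20.1% changed. At an unadjusted p under 0.05 there were 39 lower and none higher (of all genes 17% and 16.3%). The median change was -0.36 (all genes -0.01), with a range from -1.09 for H2bu2 to 0.01 for H1f1, and 44 of 45 estimates lay below 0. Decreases were found in 3 of 5 H1, 13 of 13 H2A, 10 of 11 H2B, 5 of 7 H3 and 7 of 9 H4 genes. The 7 genes that did not pass were H1f1, H1f4, H2bc6, H3c1, H3c8, H4c17 and H4c8.

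Sizes were small in this fit for all genes but H2bu2. The class medians were -0.32 for H1, -0.48 for H2A, -0.35 for H2B, -0.28 for H3 and -0.36 for H4. The wild-type pool entered as 1 sample without spread of its own. Widening the standard errors for such a spread left 6 of the 38 calls, and median centring in place of loess left 5 with a median of -0.117. With Agilent's processed signals 31 genes passed with a median of -0.406, and H2bc22, a dim probe, measured -1.03 in place of -0.45. Without the exchanged pools and the dye term 17 genes passed, and 7 when Cdk6-K43M replicate 2 was left out as well. Leaving out that replicate alone left 34 calls and a median of -0.307, with H1f5, H2bc4, H3c7 and H3c13 the ones lost. The median of the H2A class was, without the exchanged pools and the dye term, -0.137 with 3 of 13 genes called, and with median centring -0.133 with 0 of 13.

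**Figure D2:**
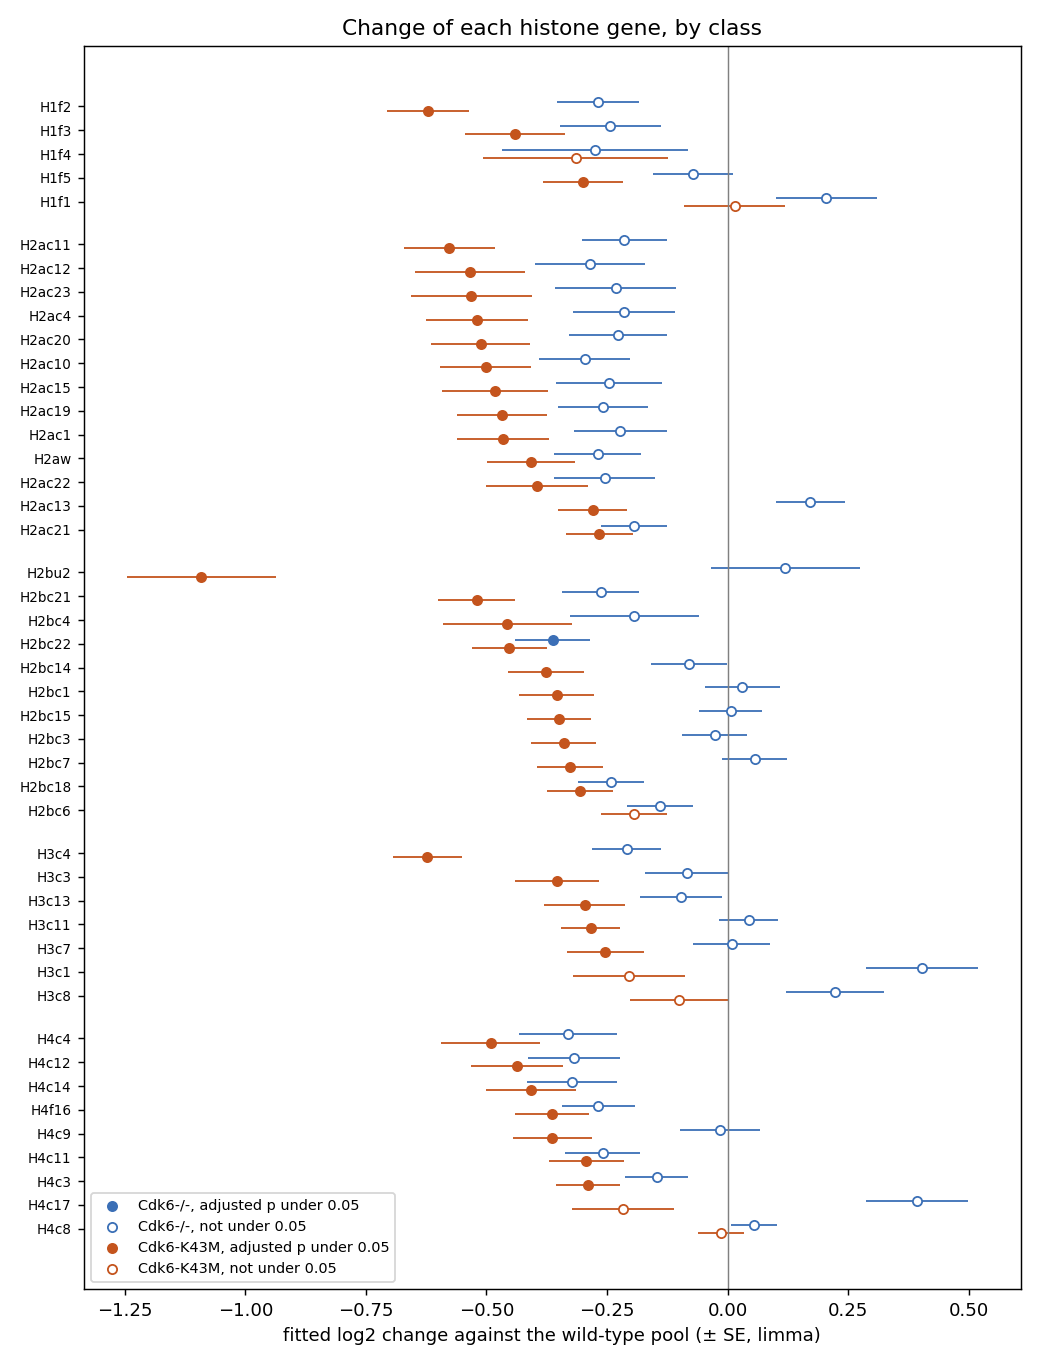
Fitted log2 change of each of the 45 histone genes against the wild-type pool (points, with SE as bars) in Cdk6-/- and Cdk6-K43M, grouped by class and ordered within a class by the Cdk6-K43M change, filled where the adjusted p was under 0.05. Filled points are 38 for Cdk6-K43M, all left of 0, and 1 for Cdk6-/-, H2bc22.

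Across the 18 settings fixed for this comparison, 5 genes fell and passed in each: H1f2, H2bc21, H2bc22, H2bu2 and H3c4. They also passed in both settings added after seeing the data, among them the 1 without Cdk6-K43M replicate 2 and without the exchanged pools. H2bu2 (Hist3h2ba), an H2B gene of the small Hist3 cluster, changed most. It measured -0.55, -1.65, -1.38 and -0.89 in the 4 Cdk6-K43M samples and -1.03 in the exchanged pool, against 0.02, 0.07, 0.43 and -0.07 in the Cdk6-/- samples and 0.09 in their pool. Every Cdk6-K43M value lay below every Cdk6-/- value. The fitted decrease in Cdk6-K43M was 1.09 (SE 0.155, adjusted p = 0.00138), which is 2.13-fold. The gene overlaps with a predicted gene, Gm51864, in RefSeq, and the deposited values do not tell their transcripts apart.

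H3c4 (Hist1h3d), a core H3 gene, had the smallest p. It measured -0.58, -1.0, -0.62 and -0.54 in Cdk6-K43M and -0.52 in the exchanged pool. The Cdk6-/- samples lay within a narrow band of -0.23, -0.23, -0.26 and -0.25, with the pool at -0.22. The groups did not overlap, and the exchanged pools gave values near those of the single samples. The fitted changes were -0.62 in Cdk6-K43M (SE 0.0719, adjusted p = 0.00052) and -0.21 in Cdk6-/- (SE 0.0719, adjusted p = 0.108).

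H1f2 (Hist1h1c), a linker histone gene, measured -0.25, -0.69, -0.40 and -0.43 in Cdk6-K43M and -0.76 in the exchanged pool. In Cdk6-/- it measured -0.21, 0.05, 0.15 and -0.25, and -0.52 in the pool. The single samples of the genotypes did not overlap, although Cdk6-/- replicate 4 and Cdk6-K43M replicate 1 were level to 2 decimals. The fitted change in Cdk6-K43M was -0.62 (SE 0.085, adjusted p = 0.0012).

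H2bc21 (Hist2h2be) encodes an H2B variant known from olfactory neurons. It measured -0.50, -0.52, -0.32 and -0.56 in Cdk6-K43M, with the pool at -0.53, and -0.24, 0.07, -0.12 and -0.47 in Cdk6-/-, with the pool at -0.37. Its Cdk6-K43M samples were close together and overlapped with the lowest Cdk6-/- sample. It fell by 0.52 (SE 0.0798, adjusted p = 0.00202), and its second probe fell by 0.53. H2bc22 (Hist1h2bp) measured -0.26, -0.57, -0.25 and -0.51 in Cdk6-K43M and -0.50 in the pool. Of the 5 genes it alone passed in both genotypes, with a Cdk6-K43M decrease of 0.45 (SE 0.0778, adjusted p = 0.0035).

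**Figure D3:**
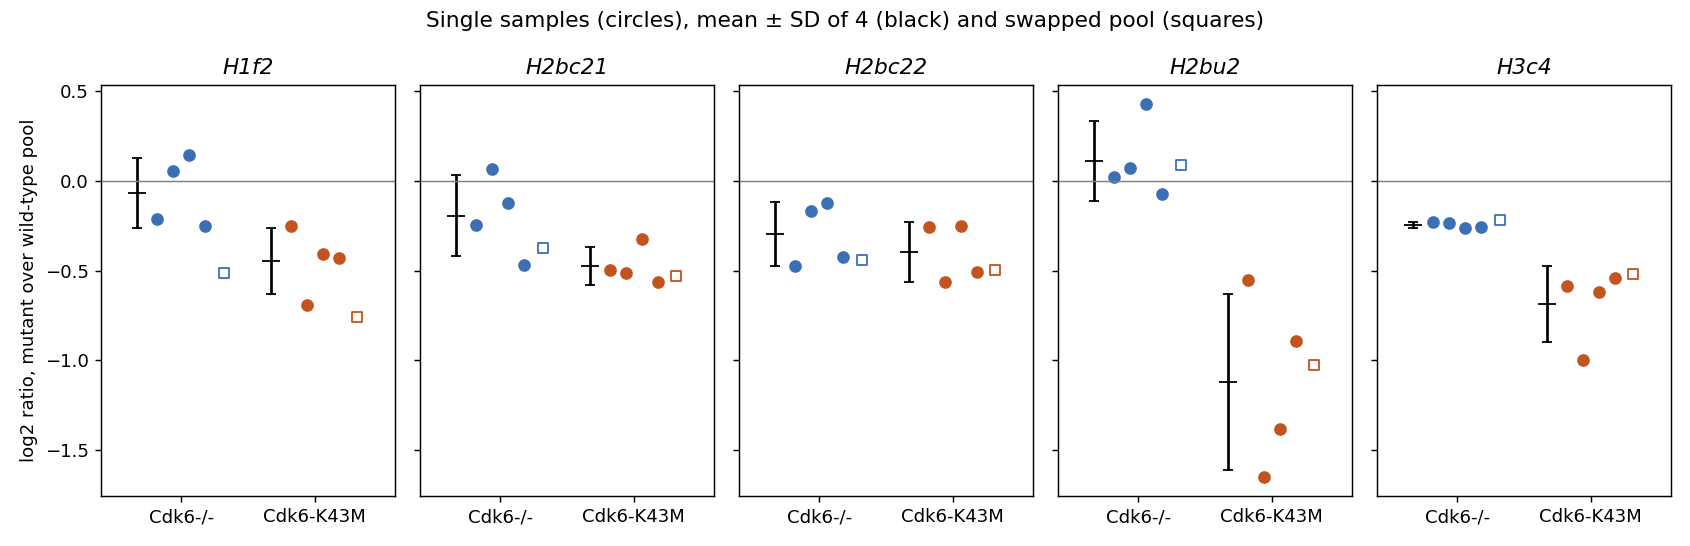
Log2 ratio over the wild-type pool of the 5 histone genes that passed in Cdk6-K43M under each of the 18 settings, with single samples as circles, the mean and SD of the 4 samples in black and the pool with exchanged dyes as an open square. The Cdk6-K43M samples of H2bu2, H3c4 and H1f2 lie below all Cdk6-/- samples, while those of H2bc21 and H2bc22 overlap with them.

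The 13 H2A genes all fell in Cdk6-K43M, yet the values of most were divided by dye. Of these calls 10 ended without the exchanged pools and the dye term, and H2ac4, H2ac13 and H2ac21 still passed. H2ac11 (Hist1h2ag), with the smallest p of the class, measured -0.05, -0.33 and 0.02 in Cdk6-K43M replicates 1, 2 and 4, had no value in replicate 3, and measured -1.01 in the exchanged pool. In Cdk6-/- it measured -0.01, 0.48, 0.21 and 0.38, and -0.73 in the pool. Apart from Cdk6-K43M replicate 2 (-0.33), the single samples of both genotypes thus lay near or above the wild-type pool, and both exchanged pools lay far below it. The dye term of the fit took up 0.47 of this (adjusted p = 0.00479), and the fitted changes were -0.58 in Cdk6-K43M (SE 0.0933, adjusted p = 0.0034) and -0.21 in Cdk6-/- (adjusted p = 0.173). Without the exchanged pools and the dye term its Cdk6-K43M change was -0.12 (adjusted p = 0.461). H2ac10 (Hist1h2af) measured 0.10, -0.38, 0.30 and -0.05 in Cdk6-K43M and -0.98 in the pool, for a fitted change of -0.50 (adjusted p = 0.0054), or -0.0071 (adjusted p = 0.969) without the pools and dye term.

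A dye effect passed the test in 9 of the 45 histone genes, against 6.51% of all genes tested. They were 8 H2A genes, H2ac1, H2ac10, H2ac11, H2ac12, H2ac15, H2ac19, H2ac20 and H2ac23, and 1 H4 gene, H4c4. In these 9 genes the mean of the Cdk6-K43M single samples lay between -0.15 and 0.04, and the exchanged pool between -1.01 and -0.81. H2ac13 and H2ac21 showed no such split, with dye terms of 0.0030 and 0.02. They were also dimmer, with mean log2 signals in Cdk6-/- of 11.37 and 7.11, against 16.95 to 17.41 for the 9 genes. H2ac22, at 17.03, had a dye term that did not pass (limma, adjusted p = 0.107). The part of signal level in the split was not tested. H2ac13 (Hist1h2ai) measured -0.24, -0.52, -0.16 and -0.23 in Cdk6-K43M and -0.24 in the pool, and 0.34, 0.26, 0.09 and 0.05 in Cdk6-/- with 0.13 in the pool. Its genotypes lay on opposite sides of the wild-type pool on all 10 arrays. It fell by 0.28 in Cdk6-K43M (SE 0.0712, adjusted p = 0.021), and its change in Cdk6-/- was 0.17 (adjusted p = 0.171). H2ac4 and H2aw, with fitted decreases of 0.52 and 0.41 in Cdk6-K43M, had dye terms that did not pass (adjusted p of 0.218 and 0.053).

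Among the other H2B genes, H2bc15 had a dye term of 0.05. H2bc15 (Hist1h2bn) measured -0.22, -0.52, -0.34 and -0.16 in Cdk6-K43M and -0.34 in the pool, against -0.04, 0.13, 0.03 and 0.17 in Cdk6-/- and -0.10 in the pool. All Cdk6-K43M samples were below the lowest Cdk6-/- sample. It fell by 0.35 (SE 0.0656, adjusted p = 0.0054), and its Cdk6-/- change was 0.0060 (adjusted p = 0.967). H2bc7 and H2bc3 fell by 0.33 and 0.34, and H2bc1, which encodes a testis form of H2B, by 0.35. With every kept probe as a feature, the second probe of H2bc3 was at -0.20 and did not pass (limma, adjusted p = 0.0838). H2bc4, H2bc14 and H2bc18 fell by 0.46, 0.38 and 0.31. H2bc1, H2bc7, H2bc14 and H2bc18 no longer passed without the exchanged pools and the dye term. H2bc6 was the exception of the class at -0.19 (adjusted p = 0.0732).

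Of the H3 genes, H3c3, H3c13, H3c11 and H3c7 fell by 0.35, 0.30, 0.28 and 0.25 in Cdk6-K43M. H3c7 was just past the threshold (adjusted p = 0.0499) and passed in 3 of the 18 settings and in 1 of the 8 fits with a replicate left out. H3c7 and H3c11 no longer passed without the exchanged pools and the dye term. H3c8 (-0.10, adjusted p = 0.541) and H3c1 (-0.20, adjusted p = 0.253) did not pass. H3c1 measured 0.04, -0.62, -0.11 and -0.10 in Cdk6-K43M and -0.17 in the pool, so only replicate 2 was far from the wild-type level.

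Of the H4 genes, H4c4 fell by 0.49, H4c12 by 0.44, H4c14 by 0.41, H4f16 (Hist4h4) and H4c9 by 0.36 each, and H4c11 and H4c3 by 0.29 each. H4c12 measured -0.23, -0.72, -0.04 and -0.46 in Cdk6-K43M and -0.47 in the exchanged pool, all below the wild-type level. Without the exchanged pools and the dye term H4c9 and H4c12 still passed, while H4c3, H4c4, H4c11, H4c14 and H4f16 did not. The second kept probe of H4c4 measured -0.36, -0.75, -0.20 and -0.55 in Cdk6-K43M and -0.41 in the exchanged pool. With every kept probe as a feature it fell by 0.45 (limma, adjusted p = 0.0034). H4c17 was at -0.22 (adjusted p = 0.184). H4c8 (Hist1h4h) measured 0.07, 0.08, 0.07 and 0.14 in Cdk6-K43M and -0.08 in the pool. This is the narrowest spread of any member in that genotype, replicate 2 included, and the fitted change was -0.01 (SE 0.0475, 95% interval from -0.12 to 0.09). The H4c8 probe was dim, with a mean log2 signal of 6.92 in Cdk6-K43M and 6.83 in wild type, against 16.33 and 16.67 for H4c12. The part of this low signal in the narrow spread was not tested.

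Among the H1 genes, H1f3 and H1f5 fell by 0.44 and 0.30 in Cdk6-K43M. H1f4 measured 0.49, -0.95, -0.51 and -0.80 in the single samples and -0.18 in the pool, and with this spread its change of -0.32 did not pass (SE 0.192, adjusted p = 0.291). H1f1 measured 0.61, -0.19, 0.16 and 0.13, and -0.14 in the pool, for a fitted change of 0.01. Replicate 1 held the highest Cdk6-K43M value of both genes and replicate 2 the lowest single-sample value.

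Whether the genotypes themselves differ was tested on the 8 single samples, where pool and dye cancel. None of the 45 histone genes passed (limma, adjusted p under 0.05), where 0.25% of all genes passed as lower and 0.264% as higher in Cdk6-K43M, 0.513% in all. At an unadjusted p under 0.05 there were 18, all lower in Cdk6-K43M (of all genes 7.78% lower and 6.28% higher). All 45 estimates lay below 0, with a median difference of -0.26 (all genes -0.0095, with 52.4% of estimates below 0). This share depends on the scaling, since with median centring 30 of the 45 estimates lay below 0 and the median was -0.0892. Without Cdk6-K43M replicate 2 the median was -0.147, with 42 of the 45 estimates below 0 and none called. In 11 genes the samples did not overlap, each lower in Cdk6-K43M, where 4.11% of all genes showed that order and 4.07% the opposite one. They were H1f2, H2ac13, H2bc1, H2bc3, H2bc7, H2bc15, H2bu2, H3c1, H3c4, H3c11 and H4c17.

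The largest difference was that of H2bu2, at -1.23 (95% interval from -1.75 to -0.71, adjusted p = 0.0723). It passed without Cdk6-K43M replicate 1 (-1.42, adjusted p = 0.0442). The differences of H3c1 and H4c17 were -0.63 (interval from -1.02 to -0.24) and -0.62 (interval from -0.97 to -0.26), with adjusted p of 0.18 and 0.161. Both had estimates above 0 in Cdk6-/- and below 0 in Cdk6-K43M. H2ac13 differed by -0.47 (interval from -0.71 to -0.23, adjusted p = 0.12), H3c4 by -0.44 (interval from -0.68 to -0.20, adjusted p = 0.142) and H2bc7 by -0.43 (adjusted p = 0.125). H2bc22, the gene called in both genotypes, differed by -0.10 with an interval from -0.36 to 0.16. With all 10 arrays in the fit, 5 genes passed as lower in Cdk6-K43M: H2ac13, H2bc7, H2bu2, H3c4 and H4c17.

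Split by slide, the same single-sample arrays gave the same order, without any new sample. On slide 1, with 1 array of each genotype, the median of the histone genes was -0.07 in Cdk6-/- and -0.13 in Cdk6-K43M. On slide 2, with 2 of each and Cdk6-K43M replicate 2 among them, it was 0.0525 and -0.345. On slide 3, with 1 of each, it was 0.14 and -0.104. With slide as a block the Cdk6-K43M count stayed at 38.

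The position of a gene was described next. Of the 45 genes, 35 lie in the Hist1 cluster, 7 in Hist2, 2 in Hist3 and 1 is the lone Hist4 gene. In Cdk6-K43M 28 of 35 Hist1 genes and all 7 Hist2, 2 Hist3 and 1 Hist4 genes fell, with medians of -0.35 and -0.41 in the 2 larger groups. The 2 Hist3 genes differed in size, with H2bu2 at -1.09 and its neighbour H2aw at -0.41. Divergent H2A and H2B genes that share a promoter gave 3 tested pairs, with 164 to 281 bases between the starts. In Cdk6-K43M the H2A and the H2B gene measured -0.48 and -0.35 (H2ac15 and H2bc15), -0.39 and -0.45 (H2ac22 and H2bc22), and -0.47 and -0.35 (H2ac1 and H2bc1). All 6 of these genes fell. In RefSeq H2ac1 and H2bc1 overlap with the predicted gene Gm33516, H2bc6 with Gm33387 and H2aw with Trim17, so their values are uncertain in the same way as that of H2bu2. In Cdk6-K43M 30 of 34 called genes with a promoter entry held CCAAT and 4 of 6 genes that were not called did.

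Genes that make, process and handle histone mRNA and protein were taken from a list of 26, all measured. In Cdk6-/- 7 fell (26.9%, of all genes tested 3.85%) and none rose, with a median of -0.08. They were Slbp (-0.36), Npat, the coactivator of histone gene transcription (-0.22), Casp8ap2 (-0.22) and Zfp473 (-0.45), which act in processing of histone mRNA ends, Eri1, the exonuclease that trims those ends (-0.24), and the chaperone genes Nasp (-0.35) and Chaf1a (-0.27). In Cdk6-K43M 7 fell (26.9%, of all genes tested 10.3%) and 3 rose, with a median of -0.07. The share of the 26 that rose was close to that of all genes tested (9.79%). Those that fell were Pou2f1 (-0.68, adjusted p = 0.000775), Slbp (-0.42), Cstf2 (-0.38), Rbbp4 (-0.47), Eri1 (-0.27), Nasp (-0.32) and Chaf1a (-0.19). Lsm10 and Lsm11, which encode parts of the U7 particle that cuts histone mRNA, rose by 0.28 and 0.34, and Lsm1, of mRNA decay, rose by 0.23. None of the 26 differed between the genotypes (adjusted p under 0.05, 6 at an unadjusted p under 0.05). Slbp measured -0.79, -0.60, -0.41 and -0.34 in Cdk6-/- and -0.87, -0.71, -0.45 and -0.36 in Cdk6-K43M, with -0.19 and -0.25 in the exchanged pools. Every value lay below the wild-type pool, and the genotypes overlapped throughout.

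Replication-independent histones are made outside S phase too, mostly from polyadenylated mRNA, and 9 of 11 listed were measured. H3f3b, which encodes the H3 variant placed at transcribed genes, fell by 0.31 in Cdk6-/- (adjusted p = 0.037) and by 0.86 in Cdk6-K43M (adjusted p = 0.000116). In Cdk6-K43M H2aj and Macroh2a1 fell too, by 0.46 and 0.24, and none of the 9 rose in either genotype. Decreases made up 11.1% of the 9 in Cdk6-/- and 33.3% in Cdk6-K43M, against 3.85% and 10.3% of all genes. H2aj was divided by dye like the H2A genes above: its Cdk6-K43M single samples measured 0.19, -0.27, 0.33 and 0.01, with a mean above 0, and the exchanged pool -1.02. H3f3a, which encodes the same protein as H3f3b, measured -0.02 in Cdk6-/- (adjusted p = 0.943) and -0.29 in Cdk6-K43M (adjusted p = 0.116). None differed between the genotypes (1 at an unadjusted p under 0.05), although all 9 estimates were lower in Cdk6-K43M than in Cdk6-/-, with a median difference of -0.14.

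Of 47 genes of DNA replication and of the G1/S transition, 18 fell in Cdk6-/- and 21 in Cdk6-K43M, and none rose. The decreases are 38.3% and 44.7% of the list, against 3.85% and 10.3% of all genes. The medians of the 47 genes were -0.25 in Cdk6-/- and -0.21 in Cdk6-K43M. Rrm2, a subunit of ribonucleotide reductase, fell by 0.68 in both. Gmnn, the inhibitor of replication licensing, fell by 0.36 in Cdk6-/- and 0.63 in Cdk6-K43M. The comparisons with wild type share the pool, so their values are given only side by side. Of these 47 genes none differed between the genotypes (3 at an unadjusted p under 0.05), and the median difference was 0.0056. It was -0.26 for the replication-dependent histones and -0.14 for the replication-independent ones. The value of -0.26 was -0.0892 with median centring and -0.147 without Cdk6-K43M replicate 2, and the 47 genes were not summarised in those settings. Their per-sample medians ran from -0.45 to -0.15 in Cdk6-/- and from -0.54 to -0.22 in Cdk6-K43M, with the lowest in Cdk6-K43M replicate 2, the sample that was also lowest for the histones.

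**Figure D4:**
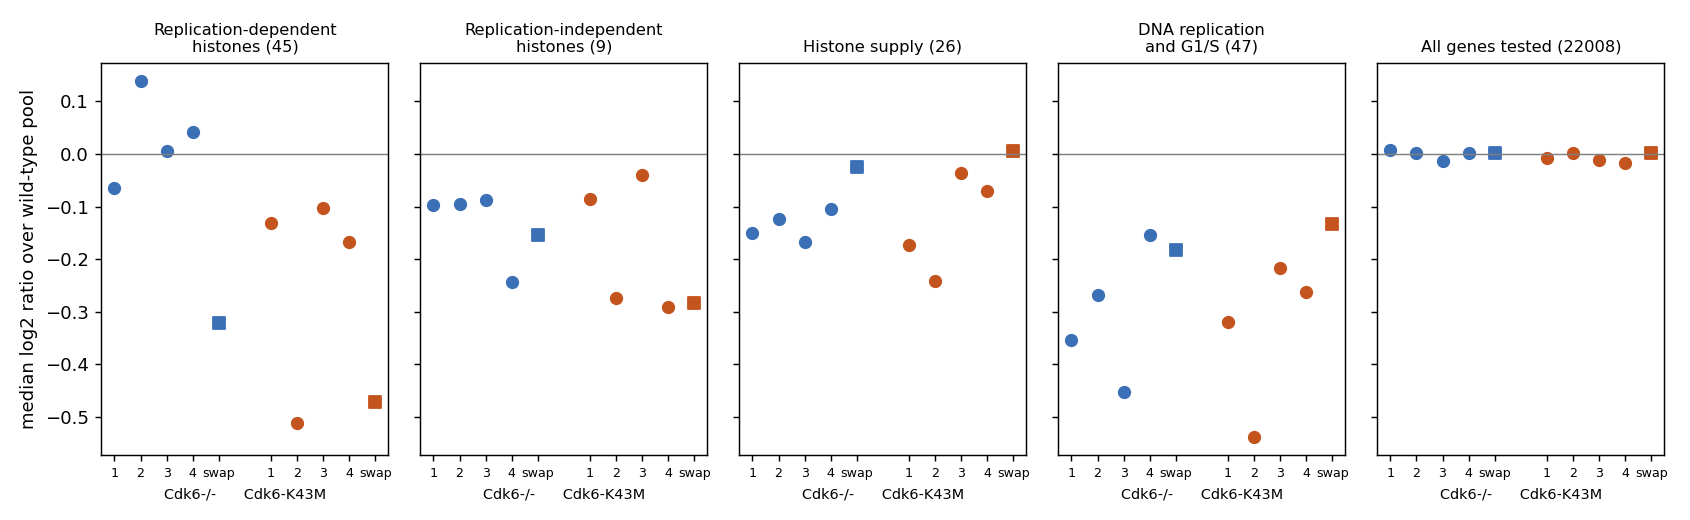
Median log2 ratio over the wild-type pool on each of the 10 arrays for 5 sets of genes, with the number of genes in parentheses, single samples as circles and pools with exchanged dyes as squares. In the single samples the replication-dependent histones of Cdk6-K43M (-0.51 to -0.10) lie below those of Cdk6-/- (-0.07 to 0.14), while in the DNA replication genes the genotypes overlap. The exchanged pools of the replication-dependent histones are at -0.32 in Cdk6-/- and -0.47 in Cdk6-K43M, so that of Cdk6-/- lies within the range of the Cdk6-K43M samples.

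Markers of granulocytes, monocytes and macrophages were read beside these values. For comparison, 3.85% of all genes fell and 3.39% rose in Cdk6-/-, and 10.3% fell and 9.79% rose in Cdk6-K43M. Of 17 listed granulocyte, monocyte and macrophage markers 13 were tested, of which 6 fell in Cdk6-/- and 5 in Cdk6-K43M and none rose. Their median log2 ratio ran from -1.09 to -0.50 in Cdk6-/- and from -0.74 to -0.0029 in Cdk6-K43M. In Cdk6-/- S100a9 fell by 4.16 and S100a8 fell by 3.16, and in Cdk6-K43M S100a9 fell by 3.94 and S100a8 fell by 2.94. Macrophage genes were high in Cdk6-K43M replicate 4, with Lyz2 at 2.24, Csf1r at 1.95 and Lgals3 at 1.85, and at or below 0 in the other 3 samples. The histone median of that sample was -0.17, within the range of its genotype. The part of such cells in the histone values was not tested. Of 6 tested T and NK cell markers 2 rose and 2 fell in Cdk6-/-, and 2 rose and 1 fell in Cdk6-K43M, among them Thy1 (2.14 and 2.79) and Cd2 (-1.19 and -1.32). Of the 4 erythroid and megakaryocyte, 5 stem and progenitor and 1 stromal and endothelial markers tested, 1 rose (Gfi1b) and 1 fell (Flt3) in Cdk6-/- and 1 rose (Ly6a) in Cdk6-K43M. Of the 13 B-lineage markers 1 rose in Cdk6-/-, and 5 rose and 3 fell in Cdk6-K43M. None of the 4 mast cell and basophil markers was among the genes tested.

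**Figure D5:**
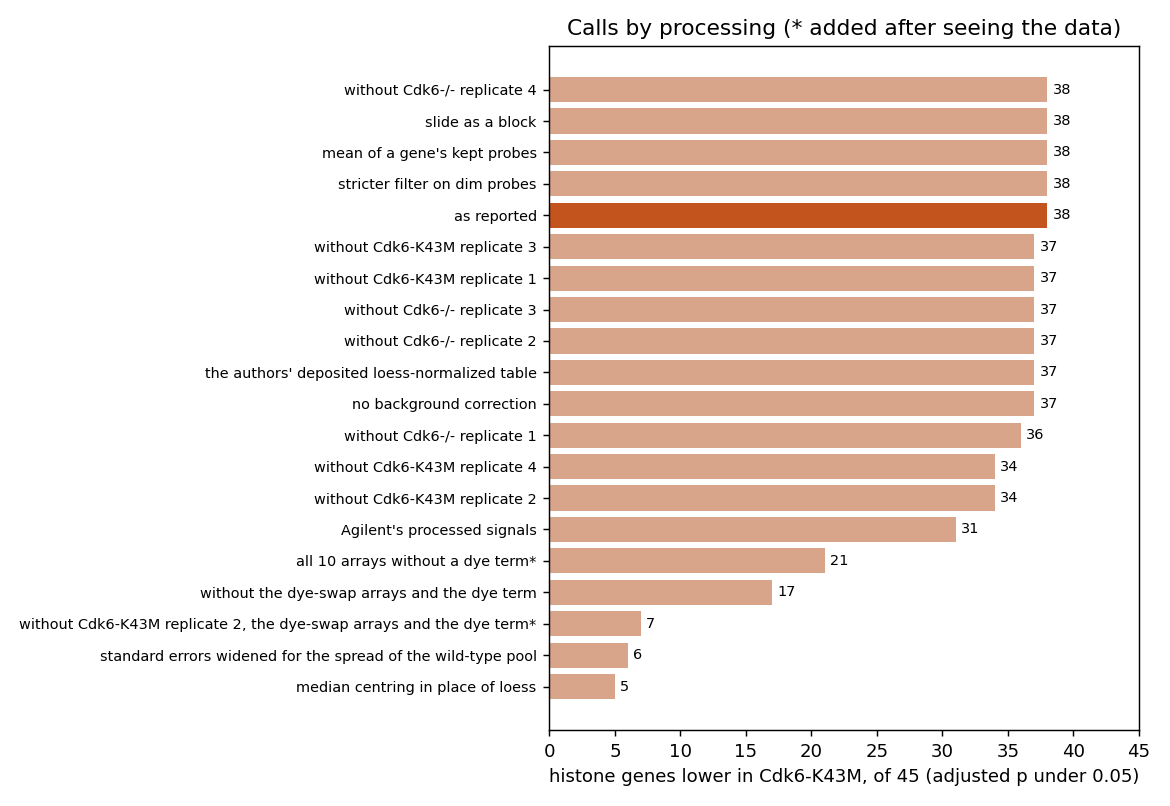
Number of the 45 tested histone genes that passed as lower in Cdk6-K43M than in the wild-type pool under each processing setting that tested the same 45 genes, with the reported value in dark colour and settings added after seeing the data marked by an asterisk. The count lies between 31 and 38 under 15 settings and between 5 and 21 under the other 5.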

How the data were processed

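Members and gene lists were chosen with earlier results of these data known. Per the file headers, spot intensities and local backgrounds come from Agilent Feature Extraction 11.5.1.1, with probes placed on mm9. A table of loess-normalized log2 values was deposited by the authors; its background correction is not stated. Median signals were corrected by normexp (offset 50) and normalized by loess within arrays in limma 3.58.1 (R 4.3.3). Control spots had no weight, 195 spots that were not uniform were set to missing, and spots of a probe were averaged. Probes stayed in if well above background for 3 or more of the 4 single samples of a genotype, or for wild type on 5 or more of 10 arrays. The brightest kept probe stood for a gene. Probes were named through RefSeq transcript accessions (58.29% matched).

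Linear models with empirical Bayes moderation used all 10 arrays with a dye term against the wild-type pool (7 residual degrees of freedom) and the 8 single-sample arrays between genotypes (6). Exchanged pools hold the RNA of the single samples, so it is counted again in that fit. P-values were two-sided and adjusted by Benjamini-Hochberg over 22008 genes, with a threshold of 0.05. The fit was tested on simulated data. Named genes were up to 3 of a class by smallest p in each comparison, all past the threshold, and up to 4 of a list; members outside this rule were added later to complete a count. Alternatives varied background, normalization, filter, probe choice, dye term, slide, replicates and the pool's spread.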

Additional observations from a re-analysis of the deposited data

Results flagged for a closer look

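Among 85 groups of 4 single samples, 2 held a sample far from the other 3 (by Dixon's 95% critical value); chance flags about 1 in 20 such groups. The median of the histone genes in Cdk6-K43M replicate 2 was -0.512, and in the other 3 samples of that genotype it lay between -0.168 and -0.104. H3c13, a core H3 gene, measured 0.0977 in Cdk6-/- replicate 2 and between -0.18 and -0.151 in the other 3.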

How the results depend on the processing

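The decreases in Cdk6-K43M passed in all alternatives for H1f2, H2bc21, H2bc22, H2bu2 and H3c4. Of the 38 called genes, 1 turned sign without the exchanged pools and the dye term, and 5 did with Cdk6-K43M replicate 2 left out as well. The count of 38 was 5 with median centring, 17 without the exchanged pools and dye term, 6 with standard errors widened for the pool's spread, and, in the settings added after seeing the data, 21 without a dye term and 7 without Cdk6-K43M replicate 2, the exchanged pools and the dye term. It was 34 to 38 with 1 replicate left out, and 33 of the 38 genes passed in each of those fits. The median in Cdk6-K43M was -0.117 with median centring and -0.12 in the second added setting.

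In Cdk6-/- the count of 1 was 2 with no background correction, with a stricter filter and with every kept probe as a feature, 0 with median centring, slide as a block and widened standard errors, 4 without the exchanged pools or without a dye term, and 9 in the second added setting. With 1 replicate left out it was 0 to 14. The median turned to 0.0558 without the exchanged pools and dye term (also without Cdk6-K43M replicate 2), and was -0.0529 without a dye term. Signs of single genes turned too. With all 10 arrays and no dye term, 9 histone genes turned sign in Cdk6-/-, among them H2ac10 at 0.0052. Without the exchanged pools and the dye term, 15 histone genes turned sign in Cdk6-/-. Most were H2A genes, among them H2ac10 at 0.2129 and H2aw at 0.004367. The rest were H2bc3, H2bc14, H4c4 and H4c9. In Cdk6-K43M that setting gave 0.04433 for H2ac1. Without Cdk6-K43M replicate 2 as well, Cdk6-K43M gave 0.1724 for H2ac1, 0.1158 for H2ac10, 0.08022 for H2ac15, 0.01727 for H2ac19 and 0.06771 for H4c4.

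Between the genotypes the count of 0 was 5 with all 10 arrays in the fit and 0 to 1 with 1 replicate left out, and the median was -0.0892 with median centring. Same-numbered samples correlated at r from -0.066 to 0.228, above 0.1 in 2 of 4 pairs, each of them best with its own number, so the numbers were not taken to pair the samples. The replicate block gave 0 calls and a median of -0.263. Why these settings differ was not tested. The pool's own spread is unmeasured, and 10 arrays limit how small a change could be called.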
